A study of Mus musculus with 13 samples.

Results

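A set of 10 marker genes of microglia and brain endothelium were followed in the ATAC-seq peak lists of cultured oligodendrocyte progenitor cells (OPCs). The 10 genes, of 21951 protein-coding genes in GENCODE M21, were taken by name as standard markers of cells that the culture protocol removes. Microglia were represented by Cx3cr1, Csf1r, P2ry12, Tmem119, Aif1 and Spi1, and endothelium by Cldn5, Pecam1, Cdh5 and Tek. OPCs were purified from P5 to P7 pups of AMGFAP-Cre;K27M litters, as the sample records spell the line that the study calls hGFAP-Cre. In this line Cre under a GFAP promoter activates a knock-in of the H3.3 K27M histone mutation. Brainstem or dorsal telencephalon was pooled over pups of 1 genotype, so each culture stood for several animals. Cells that bound to a BSL1-coated dish, a step against microglia and endothelial cells, were discarded, and the rest were panned on an antibody to PDGFRα and grown in proliferation medium without differentiation. The 13 libraries were 3 control brainstem (cultures 51, 59 and 61), 3 K27M brainstem (41, 59 and 61), 3 control telencephalon (51, 59 and 61) and 4 K27M telencephalon (41, 51, 59 and 61). Controls came from the same kind of litter and went through the same steps.

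Microglia are the resident macrophages of the brain and arise from yolk sac progenitors, whereas endothelial cells line its vessels and form the blood-brain barrier. Neither belongs to the neural lineage that gives rise to OPCs. ATAC-seq marks open chromatin by insertion of a transposase, and a peak is a stretch with more insertions than its surroundings. An open promoter is common at active genes but does not by itself show that a gene is transcribed, and many open sites of cell type genes lie in introns or between genes. In a bulk library a weakly open site in many cells cannot be told apart from a widely open site in few cells.

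The recurrent signal was at 1 promoter and in a few introns. Stretches of these are printed here beside promoters without a recurrent peak. Capitals mark matches on either strand to the letters GAGGAA (the core bound by PU.1, the myeloid factor encoded by Spi1), CAGCTG (an E-box) and ACAAAG (a SOX core). The 3 sets of letters do not overlap. They occurred in 28.3%, 16.3% and 18.7% of all 32851 promoters of the table used. The promoters run from 250 bases before to 50 bases after the start and come from RefSeq on GRCm38.p6, whose starts can differ from the GENCODE starts used for counting. The table matched 5 of the 10 genes, and Csf1r, Tmem119, Spi1, Pecam1 and Cdh5 had no entry. The P2ry12 promoter lies at chr3:59262936-59263235 on the minus strand and is the only member promoter with a peak in most libraries:
P2ry12 promoter: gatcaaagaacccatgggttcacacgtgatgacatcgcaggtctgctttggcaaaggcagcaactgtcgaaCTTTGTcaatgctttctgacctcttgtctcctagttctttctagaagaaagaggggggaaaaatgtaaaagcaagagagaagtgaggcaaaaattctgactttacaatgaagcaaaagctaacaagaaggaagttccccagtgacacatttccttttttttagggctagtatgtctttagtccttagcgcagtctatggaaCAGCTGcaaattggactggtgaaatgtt
The Cx3cr1 promoter, at chr9:120068247-120068546 on the minus strand, had no peak in any library:
Cx3cr1 promoter: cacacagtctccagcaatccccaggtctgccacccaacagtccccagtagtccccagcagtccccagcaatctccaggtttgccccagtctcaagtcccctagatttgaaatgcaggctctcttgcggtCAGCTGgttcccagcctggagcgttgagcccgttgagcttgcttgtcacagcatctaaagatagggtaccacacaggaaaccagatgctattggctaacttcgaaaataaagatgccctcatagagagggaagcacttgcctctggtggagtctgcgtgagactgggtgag
The Tek promoter, at chr4:94739039-94739338 on the plus strand, also had none:
Tek promoter: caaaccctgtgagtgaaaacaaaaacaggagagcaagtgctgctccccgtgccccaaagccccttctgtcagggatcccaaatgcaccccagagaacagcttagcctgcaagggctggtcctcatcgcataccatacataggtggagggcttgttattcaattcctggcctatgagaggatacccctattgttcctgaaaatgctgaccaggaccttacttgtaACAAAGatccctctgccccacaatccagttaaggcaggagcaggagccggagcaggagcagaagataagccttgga
The middle 300 bases of the recurrent Tek intron peak lie at chr4:94752602-94752901 and are given on the plus strand:
Tek intron peak: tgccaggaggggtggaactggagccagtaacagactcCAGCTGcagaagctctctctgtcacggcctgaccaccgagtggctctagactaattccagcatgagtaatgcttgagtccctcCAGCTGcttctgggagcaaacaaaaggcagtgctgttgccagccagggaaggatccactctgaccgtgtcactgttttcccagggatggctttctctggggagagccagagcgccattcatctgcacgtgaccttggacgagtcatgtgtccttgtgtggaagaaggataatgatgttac
The middle 300 bases of the recurrent Pecam1 intron peak lie at chr11:106674740-106675039 and are also given on the plus strand:
Pecam1 intron peak: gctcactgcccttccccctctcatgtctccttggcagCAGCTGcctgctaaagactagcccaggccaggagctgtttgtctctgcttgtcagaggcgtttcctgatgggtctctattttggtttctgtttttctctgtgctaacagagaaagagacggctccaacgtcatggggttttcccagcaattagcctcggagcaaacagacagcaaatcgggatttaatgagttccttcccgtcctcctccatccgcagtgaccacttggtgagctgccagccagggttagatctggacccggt
The P2ry12 promoter held 1 E-box and 1 SOX match, the Tek intron peak 2 E-boxes, and the Pecam1 intron peak 1 E-box. The printed promoters without a peak also held matches, 1 E-box in Cx3cr1 and 1 SOX match in Tek. The Cldn5 promoter, which had no recurrent peak and is not printed here, held no match. None of the 5 printed stretches held GAGGAA. These are matches of letters only, and binding was not measured.

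Each library was represented by its own list of peaks, with 16879 (control telencephalon culture 59) to 52466 (control brainstem culture 61) peaks. Fold enrichment is the signal over the local background of the library, averaged over the positions of a peak, and is not the height of a summit. The percentile of a fold is the share of peaks in the same list with the same or a lower fold. The lists hold no read counts, so depth is unknown and a gene without a peak is described as not called, not as closed. A TSS window covered the 2 kb before and the 1 kb after any annotated transcription start (TSS), and the gene body ran from the first to the last annotated base. Between 44.4% and 64.0% of protein-coding genes had a window peak per library, and this share fell to between 42.3% and 45.5% when each list was reduced to its 16879 most significant peaks (equal list length).

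Of the 10 genes, 5 had a TSS window peak in at least 1 library, 5 had none in any library, and 0 had one in all 13. Of all protein-coding genes, 69.4% had a window peak in at least 1 library and 42% in all. The median gene had a window peak in 12 libraries, and the median of the 10 marker genes was 0.5. All 10 have promoters with few CpG dinucleotides, with a ratio of observed to expected CpG of 0.187 (Aif1) to 0.508 (Cldn5) within 500 bp of the start, against a median of 0.627 over protein-coding genes. Promoters rich in CpG are open in most cell types, so genes with a ratio under 0.6 are the closer comparison. Of the 10410 such genes, 39.4% had a window peak in at least 1 library and 11.2% in all 13, with a median of 0 libraries. Of the 10 marker genes, 5 stand beside the first of these shares and 0 beside the second.

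**Figure D1:**
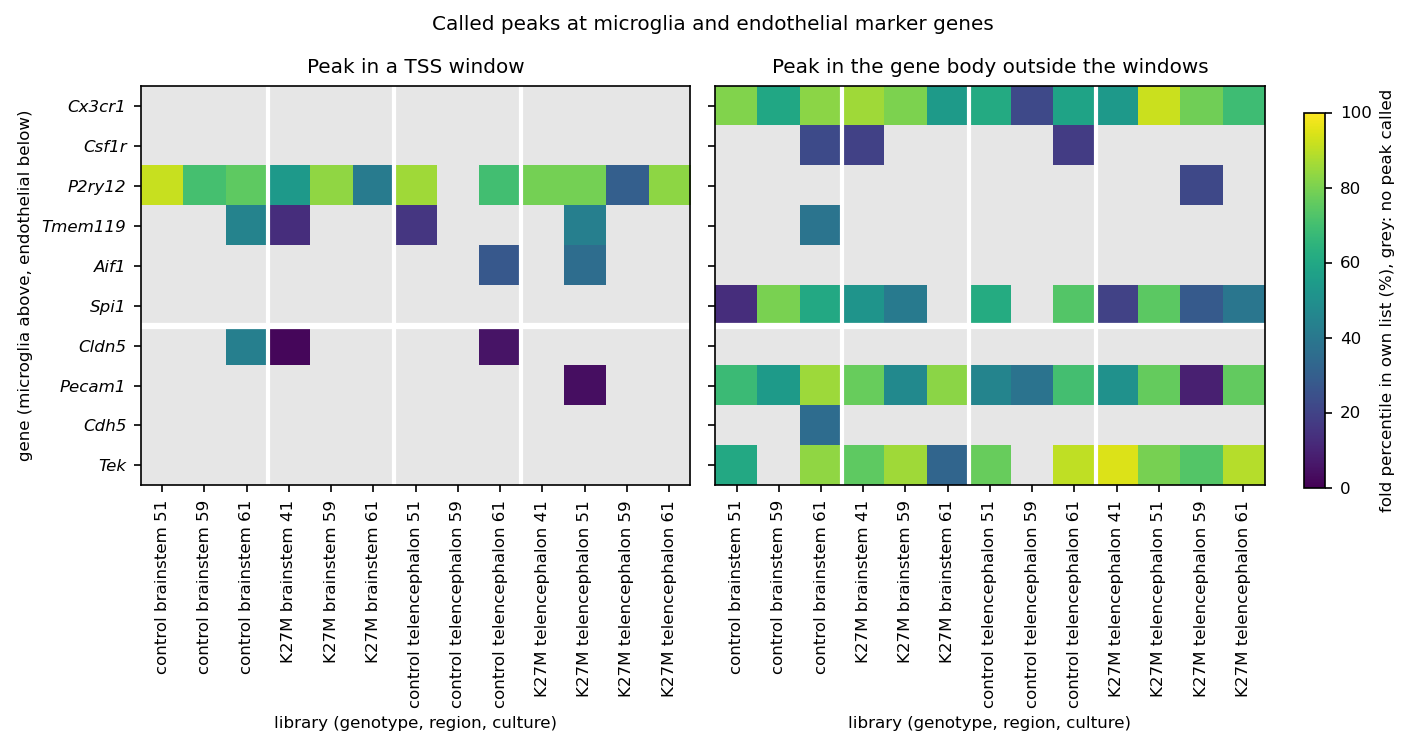
Fold percentile (colour, %) of the called peak at each marker gene (rows, microglia above and endothelial genes below the white line) in each of the 13 libraries (columns, split by group), in a TSS window (left) or elsewhere in the gene body (right), with grey where no peak was called. P2ry12 fills 12 of 13 columns on the left, and Cx3cr1 and Pecam1 fill all 13 on the right.

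P2ry12, which encodes the purinergic receptor by which microglial processes sense ATP and ADP, had the only recurrent promoter peak. The merged peak, joined from overlapping peaks of all libraries, spanned chr3:59261917-59263929 and was centred 0.052 kb upstream of the nearest start. Its fold was 4.04, 3.34 and 3.75 in control brainstem cultures 51, 59 and 61. Its fold was 2.94, 3.78 and 2.76 in K27M brainstem cultures 41, 59 and 61. In control telencephalon it was 3.43 in culture 51 and 3.48 in culture 61, and it was not called in culture 59, which had the shortest list. In K27M telencephalon it was 3.38, 3.78, 2.78 and 3.54 in cultures 41, 51, 59 and 61. The groups overlapped in range, and the mean was 3.42 ± 0.41 (SD, n = 12).

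The peak was of ordinary fold beside promoters of any CpG content that were called in at least 10 libraries. Its median percentile was 77, and the median over the 12167 protein-coding genes with a window peak in at least 10 libraries was 72.9. The mean fold over those genes had a median of 3.4. At equal list length the P2ry12 peak remained in 8 libraries, 3 of 6 from brainstem and 5 of 7 from telencephalon. P2ry12 lies on the opposite strand within the longer gene Med12l, a paralog of the Mediator subunit gene Med12, and the peak lies within the annotated body of Med12l but in no TSS window of another gene. ATAC-seq peaks have no strand.

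The fold at P2ry12 was compared between groups with limma over the 12167 genes, with region, genotype and culture number in the model and control telencephalon culture 59 left out for this gene. Brainstem minus telencephalon was −0.01 on the log2 scale (SE 0.09, 95% interval −0.19 to 0.17, adjusted p = 0.993), with mean folds of 3.43 ± 0.51 (SD, n = 6) and 3.4 ± 0.33 (SD, n = 6). K27M minus control was −0.08 (SE 0.10, 95% interval −0.28 to 0.12, limma adjusted p = 1), with mean folds of 3.28 ± 0.45 (SD, n = 7) and 3.61 ± 0.28 (SD, n = 5). Neither difference exceeded the spread between libraries. Over the 12167 genes, 0.00822% were called by region and 0% by genotype.

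**Figure D2:**
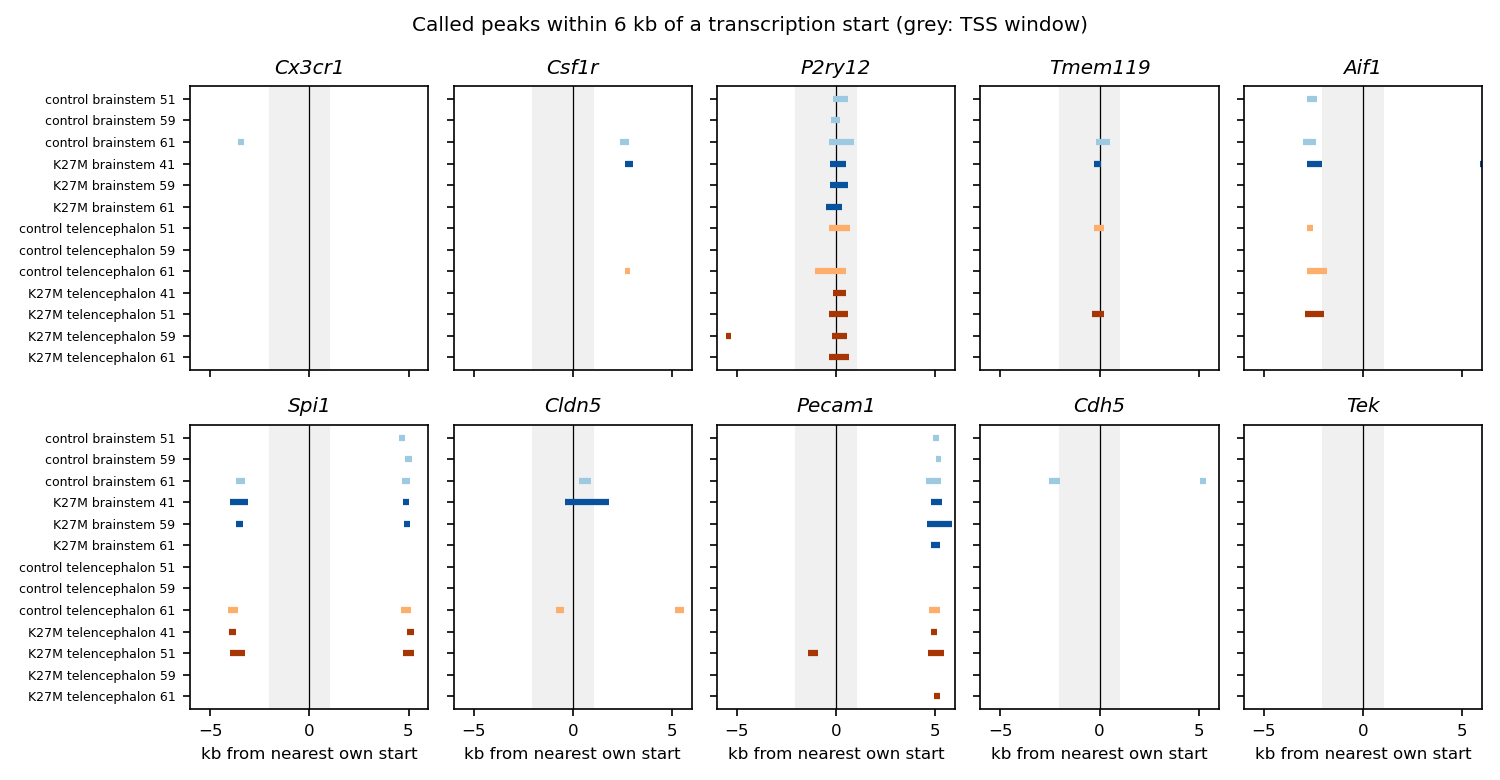
Called peaks (coloured bars, one row per library and one colour per group) by distance in kb from the nearest annotated start of each marker gene, drawn within 6 kb, with the TSS window in grey. Peaks sit on the start of P2ry12 in 12 libraries and of Tmem119 in 4, and the Aif1 peaks lie at the outer edge of its window.

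The other 5 microglial genes had few or no promoter peaks. Tmem119, a transmembrane protein that separates microglia from other macrophages, had a peak over its first exon, at chr5:113799909-113800890, in 4 libraries. Its fold was 2.98 in control brainstem culture 61, 2.31 in K27M brainstem culture 41, 2.37 in control telencephalon culture 51 and 2.75 in K27M telencephalon culture 51. These folds stood at percentiles of 44.9, 13, 16 and 43.2, so the peak was in the lower part of each list, and each group gave 1 library. The pattern was not confined to Tmem119. A total of 6 other protein-coding genes were called in exactly these 4 libraries, and by fold percentile Cyth4, Corin and Rhbg were the nearest, with mean absolute differences of 9.66, 13.6 and 17.3 percentile points.

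Aif1, which encodes the cytoskeletal protein IBA1 used to stain microglia, was called at its window in control telencephalon culture 61 with a fold of 2.68. It was called there in K27M telencephalon culture 51 with a fold of 2.62. Both calls came from the edge of a merged peak centred 2.42 kb upstream of the nearest Aif1 start. That merged peak also touches the window of the pseudogene Ncr3-ps, and was found in 6 libraries. With at least 50% of the peak required to lie in the window, or with a window of 500 bp on either side of the start, Aif1 had no window peak.

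Cx3cr1, the receptor for the neuronal chemokine fractalkine, Csf1r, the receptor for the growth factor on which microglia depend for survival, and Spi1, which encodes the myeloid master factor PU.1, had no TSS window peak in any of the 13 libraries. Spi1 had peaks 3.86 to 3.47 kb upstream of a start, outside its window, in 6 libraries.

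Of the endothelial genes, Cldn5, a tight junction protein of the blood-brain barrier, was called at its window in 3 libraries. Its fold was 2.95 in control brainstem culture 61, 2.09 in K27M brainstem culture 41 and 2.33 in control telencephalon culture 61. These stood at percentiles of 43.1, 1.90 and 5.41, and 2 of the 3 calls were therefore among the lowest of their lists by fold. The call in control telencephalon culture 61 was a separate peak 0.624 kb upstream of the start, while the other 2 lay over the single exon.

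Pecam1, the adhesion molecule CD31 at endothelial contacts, was called at a window only in K27M telencephalon culture 51. The fold there was 2.19, at a percentile of 3.53, and the peak lay 1.17 kb from an internal start, in an intron of the longer transcripts. Cdh5, the cadherin of endothelial junctions, and Tek, the receptor for angiopoietins, had no window peak in any library.

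Gene by gene, detection at the TSS window was compared between groups with Fisher's exact test over the 6016 protein-coding genes found in 1 to 12 libraries. P2ry12 was called in 6 of 6 brainstem and 6 of 7 telencephalon libraries (two-sided Fisher's exact p = 1, adjusted p = 1), and in 7 of 7 K27M and 5 of 6 control libraries (two-sided Fisher's exact p = 0.462, adjusted p = 0.912). Tmem119, Aif1, Cldn5 and Pecam1 had p-values of 0.462 to 1 in both comparisons. Of all 6016 genes, Fisher's exact test called 0% by region, with 27 genes at an unadjusted p under 0.05, and 0% by genotype, with 22. With labels exchanged only within culture number, an exact permutation test called 0 by either factor, with 1 and 0 genes at an unadjusted p under 0.05. It had 64 arrangements for region and 32 for genotype, too few for a single gene to pass adjustment. For genotype they were also too few for any unadjusted p under 0.05, so these counts decide nothing. Fisher's exact test of 6 against 7 libraries cannot give a p below 0.000583, too high for a single gene to pass adjustment over 6016. For a gene found in 12 libraries, as P2ry12, or in 1, as Pecam1, it cannot give a p below 0.462, so it could call neither. The lowest possible p is also above 0.000583 for genes found in 2 to 4 libraries, as Aif1, Cldn5 and Tmem119. The test therefore decides nothing about any of the 5 genes.

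Per library, 1.69 ± 1.18 of the 10 genes had a TSS window peak (SD, n = 13, range 0 to 4). The mean was 1.67 ± 1.15 (SD, n = 3) in control brainstem and 1.67 ± 1.15 (SD, n = 3) in K27M brainstem. It was 1.67 ± 1.53 (SD, n = 3) in control telencephalon and 1.75 ± 1.5 (SD, n = 4) in K27M telencephalon. The 4 group means lay well within the spread of any group. For microglial genes alone the mean was 1.33 of 6 in brainstem and 1.43 in telencephalon, and for endothelial genes 0.333 and 0.286 of 4. Without control telencephalon culture 59, the library with the shortest list, the mean over all libraries was 1.83. No test was run on these sums.

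The length of the list moved with the count. Besides P2ry12 there were 10 window calls in all libraries together, and 9 of them were in the 4 longest lists, which held at least 45322 peaks. The other 9 lists held at most 42238 peaks and gave the remaining call, Tmem119 in control telencephalon culture 51. The 4 longest lists came from control brainstem culture 61, K27M telencephalon culture 51, K27M brainstem culture 41 and control telencephalon culture 61, 1 from each group. At equal list length P2ry12 was the only 1 of the 10 genes with a window peak, and the mean per library was 0.615 ± 0.506 (SD, n = 13). With peaks of −log10 p of at least 10 only, none of the 10 genes had a window peak, while 4.05% to 42.1% of protein-coding genes per library did.

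**Figure D3:**
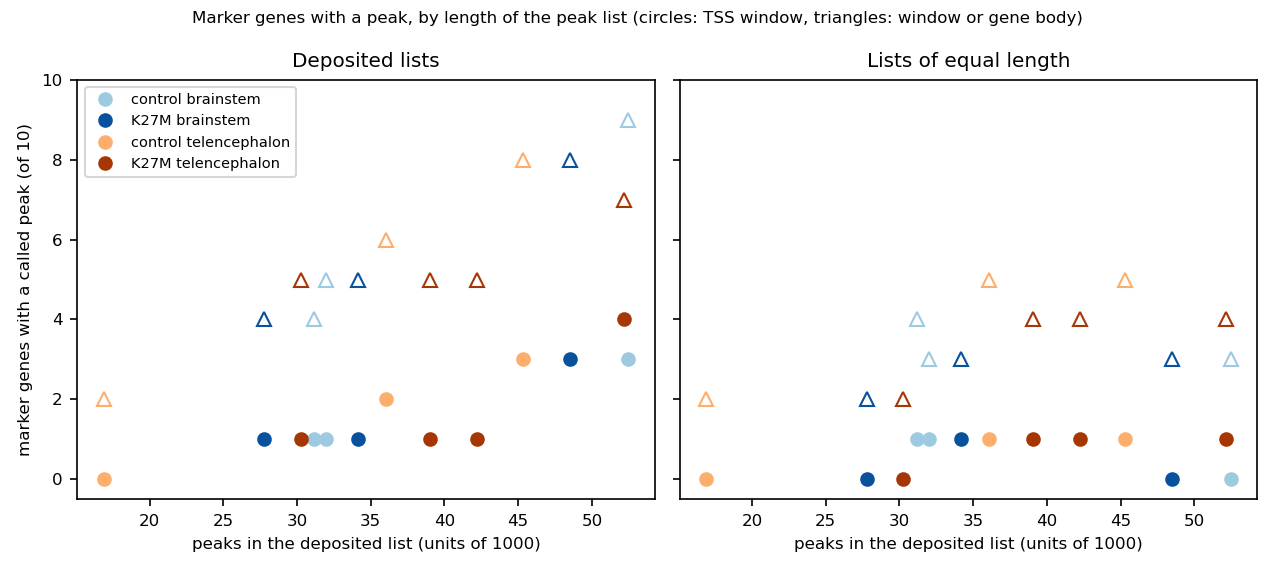
Number of the 10 marker genes with a called peak (vertical axis) against the length of the deposited list in units of 1000 peaks (horizontal axis), one library per position, with circles for TSS windows, triangles for window or gene body, and colours for groups. In the deposited lists (left) the window count reaches 3 or 4 in the 4 longest lists, and at equal list length (right) it is 0 or 1 in every library.

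Gene bodies held more peaks than promoters. All 10 genes had a peak in the window or body in at least 1 library, with 5.62 ± 1.94 genes per library (SD, n = 13, range 2 to 9), and 2 of them, Cx3cr1 and Pecam1, in all 13. Of all protein-coding genes, 75.4% had such a peak in at least 1 library and 46% in all, with 48.6% to 69.6% per library. The mean share over libraries was 63.5%, beside 5.62 of 10 for the marker genes, whose count in single libraries ran from 2 to 9. The mean was 5.83 ± 2.14 (SD, n = 6) in brainstem and 5.43 ± 1.90 (SD, n = 7) in telencephalon, and 5.57 ± 1.40 (SD, n = 7) with K27M and 5.67 ± 2.58 (SD, n = 6) in control. At equal list length the mean over all libraries was 3.38 ± 1.04 (SD, n = 13). It was then 3 ± 0.632 (SD, n = 6) in brainstem and 3.71 ± 1.25 (SD, n = 7) in telencephalon, so the order of the regions was reversed. With K27M it was 3.14 ± 0.9 (SD, n = 7) and in control 3.67 ± 1.21 (SD, n = 6). The peaks joined into 27 merged peaks, of which 6 touched a window of their own gene, 7 touched a window of another gene and 6 were found in a single library.

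The body peaks of Cx3cr1 lay far from its coding part. Its annotated body is 168 kb long because of 1 transcript, and all 8 merged peaks lay in intron 2 of that transcript, 40.7 to 131 kb from the nearest start. Of these, 5 touched windows of other genes. The peak 131 kb away, at the windows of Gorasp1 and Ttc21a, was found in all 13 libraries with a fold of 3.03 ± 0.31 (SD, n = 13). The peak 85.5 kb away, at the windows of Csrnp1 and 1700019L13Rik, was found in 12, with a fold of 2.31 ± 0.15 (SD, n = 12). The peak 56.6 kb away, at the window of Gm49427, was found in 13, with a fold of 3.26 ± 0.58 (SD, n = 13), and 2 further peaks lay at the window of Gm47043. The body of the other 2 transcripts, chr9:120048683-120069879, a stretch examined after the values were seen, held 0 peaks in all 13 libraries.

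Csf1r had a single intron peak, 2.71 kb from the nearest start and in intron 2 of 2 of its transcripts. The fold was 2.64 in control brainstem culture 61, 2.37 in K27M brainstem culture 41 and 2.56 in control telencephalon culture 61, with percentiles of 17.6 to 22.4. These are 3 of the 4 libraries with the longest lists. An enhancer used in macrophages and microglia is known in the second intron of Csf1r, and whether this peak lies on it was not tested.

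Spi1 had a peak in intron 2, at chr2:91101298-91102079, in 8 libraries, with a fold of 2.73 ± 0.35 (SD, n = 8) and a median percentile of 24.7. None of these calls remained at equal list length. A second peak, at chr2:91114678-91116242 over exon 5, was found in 10 libraries with a fold of 3.02 ± 0.40 (SD, n = 10). It also touched the window of the neighbour Mybpc3, a myosin-binding protein of the heart.

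Tmem119 had a body peak at its far end in 1 library, control brainstem culture 61, and P2ry12 an intron peak in 1, K27M telencephalon culture 59.

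Pecam1 and Tek had intron peaks in most libraries. The Pecam1 peak at chr11:106674326-106675565, whose middle is printed above, was found in all 13. Its fold was 3.30, 3.06 and 4.17 in control brainstem cultures 51, 59 and 61, and 3.63, 3.01 and 3.13 in K27M brainstem cultures 41, 59 and 61. It was 2.64, 2.75 and 3.49 in control telencephalon cultures 51, 59 and 61, and 2.83, 3.66, 2.52 and 3.32 in K27M telencephalon cultures 41, 51, 59 and 61. All 4 groups overlapped. The mean was 3.19 ± 0.47 (SD, n = 13), the median percentile 66.8, and 11 libraries kept the peak at equal list length. It lay 11.6 kb upstream of the nearest of 8 annotated starts, an internal one, and touched no window.

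A second Pecam1 peak, at chr11:106657508-106658782 and 5.18 kb from an internal start, was found in all 6 brainstem libraries and in 4 of 7 telencephalon libraries, with a fold of 2.97 ± 0.43 (SD, n = 10). Of the other 3 merged peaks of Pecam1, 1 was found in 6 libraries, 1 in 2 and 1 in 1. The Cdh5 body held 1 peak, 5.21 kb from the nearest start in intron 2, in control brainstem culture 61 only, with a fold of 2.82.

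The Tek peak at chr4:94752324-94753243, in intron 1 and 13.3 kb from the nearest start, was found in 11 libraries. Its fold was 3.15 and 4.08 in control brainstem cultures 51 and 61, and it was not called in culture 59. It was 3.58, 3.87 and 2.67 in K27M brainstem cultures 41, 59 and 61. It was 3.17 and 4.37 in control telencephalon cultures 51 and 61, not called in culture 59, and 4.07, 3.78, 3.39 and 3.77 in K27M telencephalon cultures 41, 51, 59 and 61. The mean was 3.63 ± 0.50 (SD, n = 11). With a median percentile of 79.3 it stood as high in its lists as the P2ry12 promoter peak, with 8 libraries at equal list length.

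**Figure D4:**
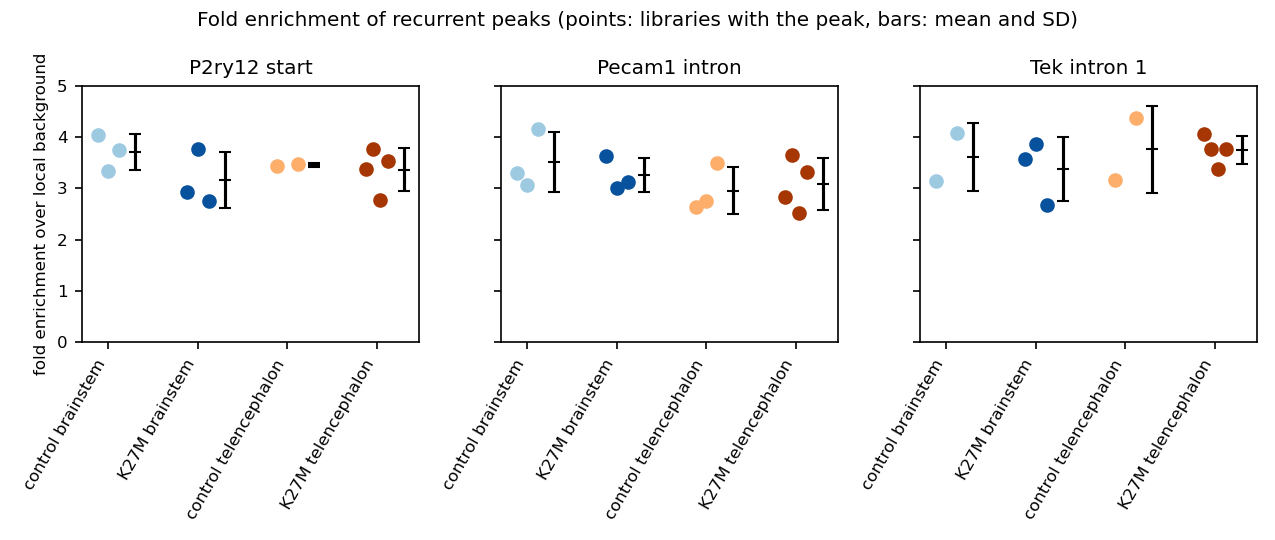
Fold enrichment over local background (vertical axis) of the recurrent peaks at the P2ry12 start, in a Pecam1 intron and in Tek intron 1, with one point per library that has the peak and bars for the mean and SD of each of the 4 groups. The groups overlap in each panel, and the points lie between 2.52 and 4.37.

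The folds of these peaks were compared with limma over the 23989 merged peaks found in at least 10 libraries, a test chosen after the data were seen. For the Tek peak, brainstem minus telencephalon was −0.20 on the log2 scale (SE 0.08, 95% interval −0.37 to −0.03, unadjusted p = 0.0238, limma adjusted p = 0.643). For the Pecam1 peak in all libraries it was 0.10 (SE 0.07, 95% interval −0.06 to 0.25, limma adjusted p = 0.868), and for the second Pecam1 peak 0.24 (SE 0.11, 95% interval 0.02 to 0.45, unadjusted p = 0.0316, limma adjusted p = 0.669). K27M minus control was −0.13 at the Tek peak (SE 0.11, 95% interval −0.35 to 0.08) and −0.06 at the Pecam1 peak in all libraries (SE 0.08, 95% interval −0.22 to 0.11), each with a limma adjusted p of 0.999. The Cx3cr1 peak 56.6 kb away, at the window of Gm49427, was at 0.17 for brainstem minus telencephalon (SE 0.07, 95% interval 0.02 to 0.32, unadjusted p = 0.0306, limma adjusted p = 0.667). It was at 0.19 for K27M minus control (SE 0.08, 95% interval 0.02 to 0.35, unadjusted p = 0.0266, limma adjusted p = 0.988). None of the tested peaks of the 10 genes passed, and over all 23989 merged peaks 0.025% were called by region and 0% by genotype. Detection of merged peaks, tested over 86671, gave 0% by region and 0% by genotype in Fisher's exact test, with 382 and 256 at an unadjusted p under 0.05. No merged peak could pass that adjustment alone, because Fisher's exact test cannot give a p below 0.000583 here.

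The other marker lists were counted in the same way. Of 8 OPC genes, 7 had a TSS window peak in all 13 libraries, namely Gpr17, Nkx2-2, Olig1, Olig2, Pdgfra, Ptprz1 and Sox10, where 42% of protein-coding genes did. Of the 7, 5 have promoters rich in CpG. The peaks of Pdgfra and Sox10 were low in fold, with median percentiles of 3.52 and 3.96. At equal list length, which keeps the most significant peaks, they remained in 12 and 10 libraries. The window peaks of Olig2 and Sox10 were all shared with the window of another gene. Cspg4 had a window peak in 3 libraries and a window or body peak in 13. Of 20 further microglial and myeloid genes, 13 had no window peak in any library, among them the complement genes C1qa, C1qb and C1qc and Ctss, Fcrls, Gpr34 and Itgam. A further 4 had one in all 13, namely the transcription factors Irf8, Runx1 and Sall1 and the secreted protein Olfml3, and 3 of these 4 have promoters rich in CpG. The number per library was 4 to 6.

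Of 20 further endothelial genes, 8 had no window peak in any library, namely Emcn, Eng, Icam2, Ly6c1, Nos3, Robo4, Slco1a4 and Tie1. Erg, a transcription factor, and Slc2a1, the glucose transporter GLUT1, had one in all 13. The other 10 had one in 3 to 12 libraries, and 6 of these, named after their values were seen, had one in at least 9, namely Egfl7 and Mfsd2a in 12, Flt1 in 11, Abcb1a and Kdr in 10 and Vwf in 9. The window peaks of Egfl7 were all shared with the window of another gene, and Mfsd2a had an unshared one in 6 libraries. At equal list length a window peak remained for Mfsd2a in 7 libraries, Flt1 and Kdr in 4, Vwf in 2, Abcb1a in 1 and Egfl7 in 0. The median percentiles of these 6 genes ran from 11.8 (Vwf) to 62.3 (Flt1). Over the 20 genes the number per library was 5 to 12. Of the 6 mural, 6 astrocyte and 6 neuronal genes, 0, 3 and 3 had a window peak in all libraries. Per library the numbers were 1 to 4, 3 to 6 and 4 to 6. Fisher's exact test called no gene of any list by region or by genotype, where 0% of all genes were called. With 13 libraries no gene could pass that adjustment alone, so this decides nothing about single genes. Many listed genes are open in more than 1 cell type, and the share of microglia or endothelial cells in the cultures was not measured.

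**Figure D5:**
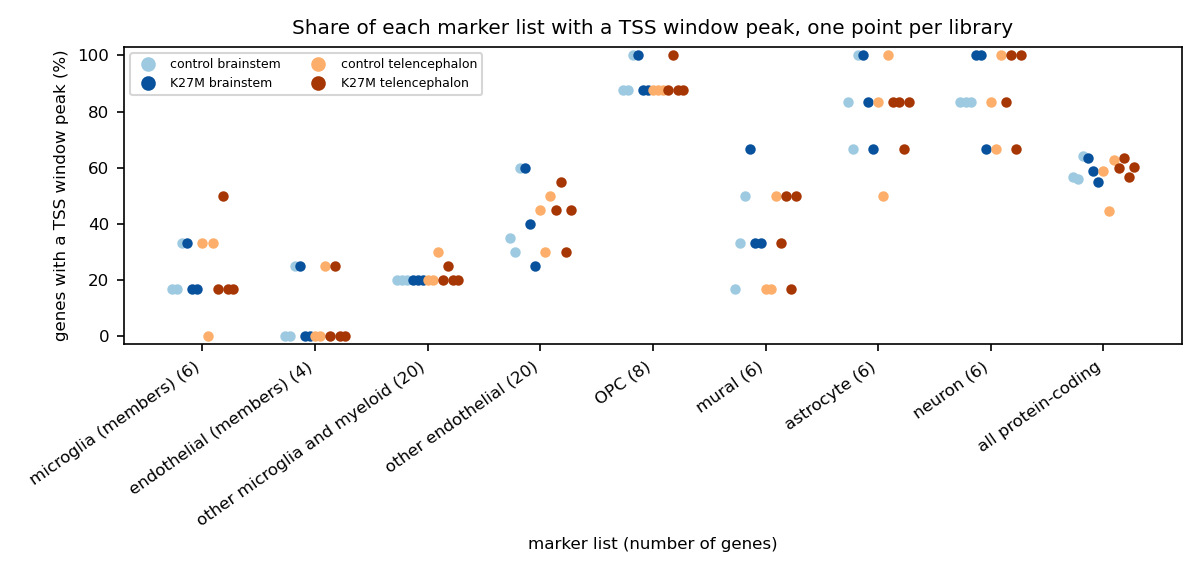
Share of genes with a TSS window peak (vertical axis, %) in each marker list (horizontal axis, number of genes in brackets) and over all protein-coding genes, with one point per library coloured by group. The OPC list lies at 7 or 8 of 8 genes in every library, and the 4 endothelial marker genes at 0 or 1.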

How the data were processed

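Peak lists of 13 libraries were analysed. The authors ran the nf-core ATAC-seq pipeline, with Trim Galore 0.6.7, cutadapt 3.4, bwa 0.7.17-r1188 on mm10 and removal of blacklisted regions, and called broad peaks per library with MACS2 2.2.7.1. The call cutoff is not given in the sources used here. The deposited ratio is the fold enrichment over local background, averaged over each peak. The deposited −log10 p and −log10 q are averaged over each peak, and the deposited score, 10 times the −log10 q, was used to check the format only. The authors' values carry no scaling from one library to another.

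Peaks were intersected (at least 1 bp) with GENCODE M21 genes with bedtools 2.31.1. Detection was compared with Fisher's exact test over protein-coding genes found in 1 to 12 libraries. The log2 fold was centred on the median of each library and fitted with limma 3.58.1 (R 4.3.3) on region, genotype and culture number, since the study accounts for matched cultures. The main fit needs a peak in all 13 libraries and held none of the 10 genes, so the fit over genes in at least 10 was used for P2ry12. Benjamini-Hochberg adjustment over all features and a threshold of 0.05 were applied. Peaks overlapping between libraries were joined into 99746 merged peaks, a step added after the data were seen. The scripts were tested on simulated data. Log2 fold deviations of libraries with the same culture number had correlations of −0.1 to 0.28 (median 0.084 over 16 pairs), against a median of −0.017 over 47 other pairs.

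All 10 genes are named. Genes of other lists are named if they have window peaks in all or no libraries, at most 8 of each kind in alphabetical order. Of these, 1 gene is counted but not reported singly here. Outside this rule, 6 further endothelial genes found in at least 9 libraries were named after their values were seen. Genes with the detection pattern of a member found in 4 to 9 libraries are named by likeness of percentile, at most 3. Cspg4, Med12l and the genes sharing a peak are named beside the values they touch. The members and lists were chosen with earlier results of these data known. Cultures are pools of pups, and whether each number marks an independent litter is not given, so p-values measure the spread between these libraries.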

Additional observations from a re-analysis of the deposited data

Results flagged for a closer look

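K27M telencephalon culture 51 stood apart from the other 3 libraries of its group in both counts of marker genes. It had 4 of the 10 genes with a TSS window peak, where the others had 1 each. It had 7 with a peak in the window or gene body, where the others had 5 each. In both cases the gap to the nearest other library was the whole range of the group. Its list, of 52164 peaks, was the longest of the group, and at equal list length it had 1 gene with a window peak. Across the 7 values tested in this way, chance alone would mark about 1 in 20 if the values were continuous. These counts are small whole numbers with ties, so that rate does not hold. The window count also set 1 library apart in control brainstem (3 in culture 61, 1 in each other) and in K27M brainstem (3 in culture 41, 1 in each other).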

How the results depend on the processing

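At equal list length, 1 of the 10 genes had a TSS window peak in any library instead of 5, and the mean number with a window or body peak per library was 3.38 instead of 5.62. With −log10 p of at least 10 these were 0 and 0.923, and the mean with a window peak was 0 instead of 1.69. A window of 500 bp on either side left 3 genes. Gene-level fold by region, over genes with a peak in all 13 libraries, called 1 gene, which is not among the 10. It called 2 without the replicate block, 0 without centring, 0 on percentiles and 0 with only peaks in no window of another gene. Leaving out 1 library at a time gave 1 to 2 by region. By genotype it gave 0 to 2 against 0, with 2 without K27M brainstem culture 61 and 1 without control telencephalon culture 61. The cause was not tested. With the replicate block, detection called 0 genes by region and by genotype, as without it. That permutation had too few arrangements to call a single gene, and Fisher's exact test had too few libraries to call 1 gene alone. In the fold comparison, merged peaks called by region numbered 6 with the block and 4 without it. For the P2ry12 window and the 10 tested merged peaks of the marker genes, limma called 0 of 22 tests with the block and 0 without it (lowest adjusted p 0.643 and 0.823), the fit of P2ry12 without the block having been added after the data were seen. No result changed direction in a test past its threshold. Depth is unknown, so the lists cannot show whether an uncalled site is closed.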
